A study of Mus musculus with 4 samples.

Results

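The 9 genes described here mark the epithelium of pancreatic ducts, the tubes that carry digestive enzymes and a bicarbonate-rich fluid out of the pancreas. They were taken from a list, Krt7, Krt8, Krt18, Krt19, Cftr, Spp1, Muc1, Car2 and Slc4a4, and found on the arrays through the RefSeq accession of each probe. All 9 had a probe, 11 probes among 56605, and 8 of the 9 entered the comparison of 26379 genes. Car2 did not, because its only probe was well above background on 1 array of each group.

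RNA of isolated mouse islets was measured on 4 single-colour Agilent arrays, 1 mouse each. The 2 control mice carried Pdx1-Cre alone, although their sample titles call them wild type, and the 2 Rb-deficient mice carried Pdx1-Cre together with Rbf/f, floxed alleles of the retinoblastoma gene. Every mouse thus carried the Cre transgene, whose promoter is active in the epithelium that gives rise to duct, acinar and endocrine cells, so that recombination need not be limited to islet cells. The labels used here give neither age nor sex.

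Duct cells secrete bicarbonate through a chain of transporters. Carbonic anhydrases supply bicarbonate inside the cell, a sodium bicarbonate cotransporter brings more in from the blood side, and the chloride channel of cystic fibrosis with chloride/bicarbonate exchangers releases it into the lumen after stimulation by secretin. The cells are held in shape by simple keratins, which pair a type II chain (Krt7, Krt8) with a type I chain (Krt18, Krt19). Krt8 and Krt18 also occur in acinar and islet cells, Muc1 also on acinar cells, and Spp1 also in macrophages, so these genes do not mark ducts alone in islet RNA.

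The preparations held signal of both endocrine and exocrine cells. All 12 beta cell markers and all 21 acinar markers were well above background on all 4 arrays. The share of all probes well above background was 76.5% on control array 1 and 59.0% to 59.9% on the other arrays, and Y-linked transcripts were well above background on control array 1 alone, Xist on the other 3. Rb1 itself was 2.40-fold lower in mean in Rb-deficient islets on its brighter probe (adjusted p 0.735 in limma). Its other probe was 2.94-fold lower (adjusted p 0.655 in the probe-level limma fit). Both probes had both Rb-deficient arrays below both controls, as had 21.3% of all probes. It is not known here if the Rb1 probes lie within the floxed segment. Values below are log2 of the processed signal minus the 75th percentile of the array, and differences are Rb-deficient minus control.

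No duct gene passed the test. With p values adjusted by the Benjamini-Hochberg method across the table, limma called 0 of 26379 genes, 0% of those tested, and 0 of the 8 duct genes, whose adjusted p values ran from 0.801 to 0.960. At an unadjusted p under 0.05 there were 390 genes higher (1.48%) and 1103 lower (4.18%), together 5.66%, and of the duct genes 0 were higher and 1, Muc1, lower. An exact two-sided permutation test of 2 against 2 arrays cannot go below p = 0.333, so none was used for single genes. Without control array 2 the filter needed only control array 1 on the control side, and 34649 genes were tested, with a median difference of -0.38. Control array 1 had 76.5% of its probes well above background, more than any other array, and alone had Y-linked signal. The spread in that fit comes from the 2 Rb-deficient arrays, and the lone control array is assumed to vary like them. The count of calls of that fit appears only among the processing alternatives below and carries no weight.

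Among the 8 duct genes, 2 were higher and 6 lower in mean, against 58.1% of all genes lower. For 2 of them, Muc1 and Cftr, the groups did not overlap and Rb-deficient islets were lower, as for 20.7% of all genes. For 1, Slc4a4 by its probe with the higher mean, they were higher without overlap, as for 15.3%. At least 2-fold lower in mean were 2, Muc1 and Spp1, against 8.03% of all genes. The median difference over the 8 was -0.07, and over all genes -0.07. With scaling to the array median 3 of the 8 were lower, and the list median was 0.37 (all genes 0.37). With only 8 genes the list median depended on the Slc4a4 probe and on single arrays. It was -0.36 with the mean of a gene's probes (all genes -0.09) and -0.36 by linear signal (-0.07). Leaving out control array 2 gave -0.19 (all genes -0.38), leaving out Rb-deficient array 1 gave -0.21 (-0.08), and leaving out Rb-deficient array 2 gave -0.27 (-0.02). With islet RNA taken in bulk, fewer cells of a type and less RNA per cell cannot be told apart.

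The promoters of Muc1, Cftr and Slc4a4 are shown, the 3 genes with a probe whose groups did not overlap. For Cftr and for Slc4a4 probe A_55_P1959228 the gap between the groups was small. RefSeq entries on GRCm38.p6, another build than the mm9 of the array design, were found for 7 of the 9 genes, 9 start sites in all. Each run is the 250 bases upstream of a start site, 5′ to 3′, and capitals mark matches to a searched motif on either strand. Among the motifs searched were the E2F-type site TTTNNCGC, present in 4.28% of all 32851 promoter windows of this length, the GC box GGGCGG (32.7%), the TATA box TATAAA (12.4%), the AP-1 site TGANTCA (6.75%) and CCAAT (33.8%).
Muc1 (chr3:89228806-89229055, + strand): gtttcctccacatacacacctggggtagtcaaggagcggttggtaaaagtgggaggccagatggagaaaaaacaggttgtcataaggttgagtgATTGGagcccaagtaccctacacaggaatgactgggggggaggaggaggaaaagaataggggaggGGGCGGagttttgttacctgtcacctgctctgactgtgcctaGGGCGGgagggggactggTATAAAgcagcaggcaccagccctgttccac
Cftr (chr6:18170437-18170686, + strand): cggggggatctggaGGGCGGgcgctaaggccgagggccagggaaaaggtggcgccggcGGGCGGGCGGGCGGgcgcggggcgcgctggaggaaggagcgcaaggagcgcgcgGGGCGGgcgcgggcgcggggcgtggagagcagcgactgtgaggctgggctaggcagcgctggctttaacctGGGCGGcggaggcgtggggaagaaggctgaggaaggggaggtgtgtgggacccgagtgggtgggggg
Slc4a4, upstream start (chr5:88887010-88887259, + strand): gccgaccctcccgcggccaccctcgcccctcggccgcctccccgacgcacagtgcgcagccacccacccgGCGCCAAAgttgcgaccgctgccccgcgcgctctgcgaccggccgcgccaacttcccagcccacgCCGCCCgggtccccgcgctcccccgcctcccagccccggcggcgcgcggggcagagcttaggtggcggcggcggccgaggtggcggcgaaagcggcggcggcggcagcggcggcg
Slc4a4, downstream start (chr5:89027716-89027965, + strand): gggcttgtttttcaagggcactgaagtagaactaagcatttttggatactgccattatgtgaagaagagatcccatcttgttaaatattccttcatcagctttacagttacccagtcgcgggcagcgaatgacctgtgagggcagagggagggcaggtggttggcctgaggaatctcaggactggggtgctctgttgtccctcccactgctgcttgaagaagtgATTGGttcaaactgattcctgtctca
E2F factors are the transcription factors that the Rb protein binds. An E2F-type match was found in 1 of the 9 windows of duct genes, upstream of the upstream Slc4a4 start, which also holds 1 GC box. The Muc1 window holds 2 GC boxes, a TATA box and a CCAAT box in reverse. The Cftr window holds 6 GC box matches, some of them overlapping, and the downstream Slc4a4 window a single CCAAT box in reverse. A match describes these letters only.

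**Figure D1:**
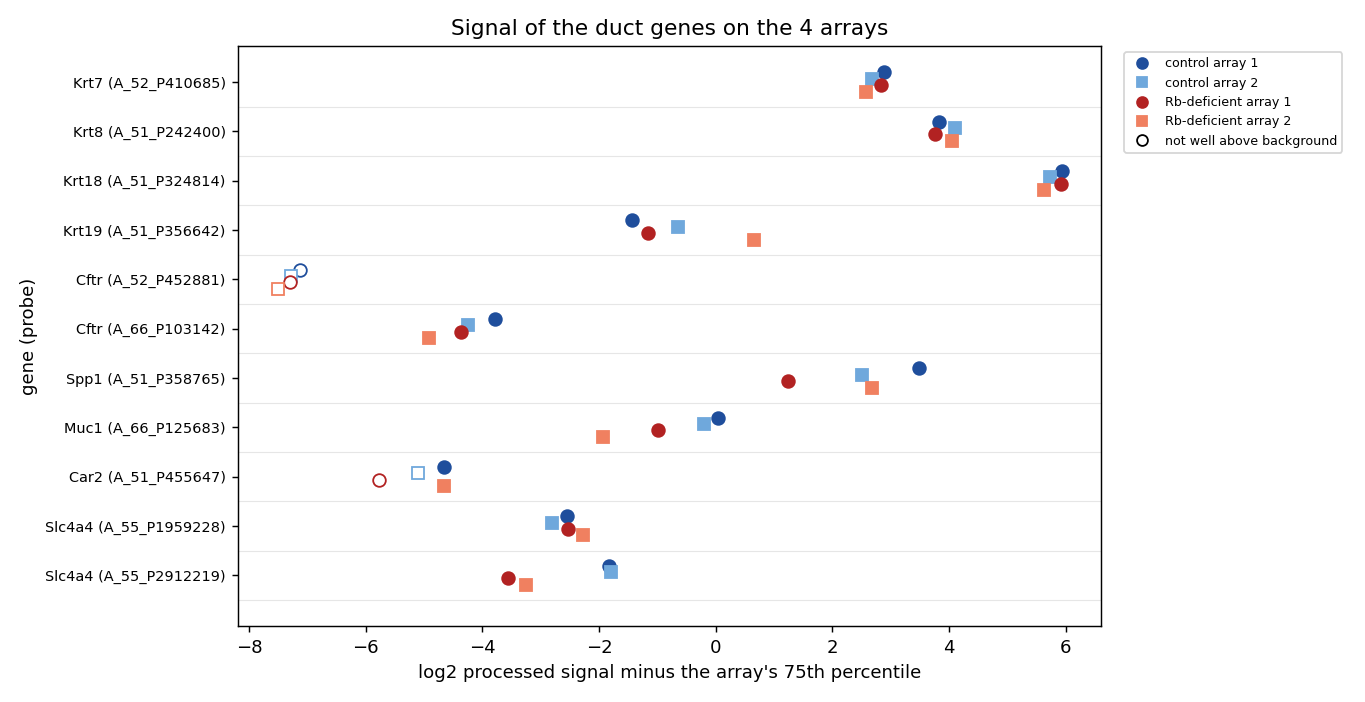
Log2 processed signal minus the 75th percentile of the array (x axis) for the 11 probes of the 9 duct genes (y axis) on the 4 arrays, with open symbols where the probe was not well above background; levels of different probes are not comparable. The 4 arrays lie close together for Krt7, Krt8 and Krt18, while for Muc1 and for probe A_55_P2912219 of Slc4a4 both Rb-deficient arrays lie to the left of both controls.

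The keratins of the duct lining were measured first. Krt7, a type II keratin of duct and other simple epithelia, had log2 signals of 2.89 and 2.68 in control islets and of 2.83 and 2.57 in Rb-deficient islets. The groups interleaved, and the difference was -0.09 with a 95% confidence interval from -0.67 to 0.50 in limma. Krt8, the type II partner of Krt18, had 3.84 and 4.10 in control and 3.77 and 4.06 in Rb-deficient islets. Here array 2 was the higher one in both groups, and the difference was -0.06 (interval -0.69 to 0.57). Krt18, the type I partner, had 5.93 and 5.74 in control and 5.93 and 5.63 in Rb-deficient islets, a difference of -0.05 (interval -0.66 to 0.55). For these 3 keratins the intervals leave room for a difference of up to 0.69 lower on the log2 scale, or 1.61-fold, and of up to 0.57 higher.

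Krt19, the type I keratin most often used to stain ducts, was uneven. Its intensity was 133 and 262 in control islets against 163 and 773 in Rb-deficient islets, or log2 signals of -1.44, -0.65, -1.16 and 0.66. Rb-deficient array 2 was above every other array, and Rb-deficient array 1 lay between the controls. The mean difference of 0.79 had a standard error of 0.74 and an adjusted p of 0.866 in limma, and it rested on that 1 array, being -0.12 without it and 1.70 without Rb-deficient array 1. Its spread within a group was wider than that of Krt7, Krt8 or Krt18.

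Rb-deficient array 2 also had the highest signal of macrophage genes. Of 15 macrophage markers tested, 14 were higher in mean, and their median over the control mean was 0.32 on Rb-deficient array 1 and 1.42 on array 2. Summed over the 16 markers, their signal was 50.3 and 50.7 times the 75th percentile in control and 57.4 and 57.9 times in Rb-deficient islets. Itgam, the brightest of them, was not among the higher ones (log2 difference -0.27), and 14 to 16 of the markers were well above background on each array. Mesothelial cells share the simple keratins. Their list had 3 of 8 genes tested, with a summed level of 3.53 and 9.93 in control and 8.22 and 5.03 in Rb-deficient islets, and the probes of Upk3b, Upk1b, Wt1 and Lrrn4 were not well above background on any array. The part of either cell type in the Krt19 signal was not tested.

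Muc1, a transmembrane mucin of the apical surface, had the lowest p of the duct genes in the gene-level fit, which takes Slc4a4 by probe A_55_P1959228; probe A_55_P2912219 of that gene had a lower one. Its intensity was 370 and 358 in control islets against 183 and 129 in Rb-deficient islets, and its log2 signals were 0.04, -0.20, -0.995 and -1.92. Both Rb-deficient arrays were below both controls, which were close to each other. Control islets had a mean of -0.08 ± 0.17 (SD, n = 2), Rb-deficient islets one of -1.46 ± 0.66 (SD, n = 2), which is 2.60-fold lower. Limma gave -1.38 with a standard error of 0.39, an unadjusted p of 0.0253 and an adjusted p of 0.801. It kept its sign in each of 14 settings, from -0.91 without Rb-deficient array 2 to -1.84 without Rb-deficient array 1.

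The order of the arrays for Muc1, from control array 1 down to Rb-deficient array 2, was also that of the acinar markers. All 21 acinar markers were lower in mean, against 58.1% of all genes, and 16 of them without overlap of the groups, against 20.7%. Their median shift was 0.16, -0.16, -0.52 and -1.51 on the 4 arrays. Their summed signal was 13863 and 11187 times the 75th percentile in control and 9452 and 5204 times in Rb-deficient islets. Of the 3 acinar markers with the highest signal, Cela2a, an elastase gene, was 1.27-fold lower in mean, Ctrb1, a chymotrypsinogen gene, 1.52-fold and Cpb1, a carboxypeptidase gene, 1.52-fold, none of them called. The part of acinar RNA in the Muc1 signal was not tested. With scaling to the array median 18 of the 21 acinar markers remained lower in mean.

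**Figure D2:**
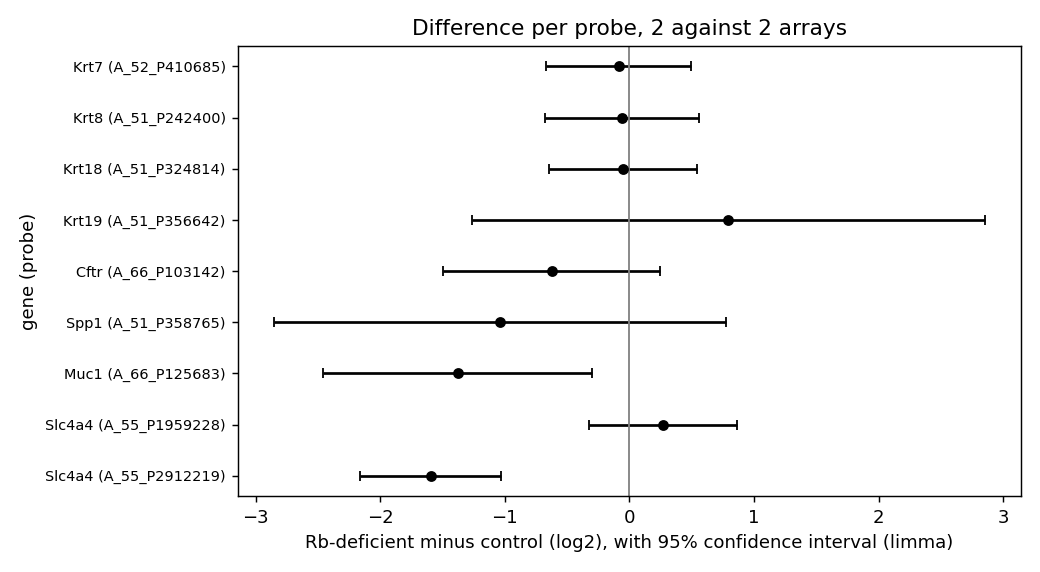
Difference between Rb-deficient and control islets (log2, x axis) for the 9 duct probes that were tested (y axis), with the 95% confidence interval of the probe-level limma fit as bars, 2 arrays per group. The intervals of Muc1 and of Slc4a4 probe A_55_P2912219 lie below 0, those of the other 7 probes include it, and no probe passed adjustment over all probes.

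The bicarbonate transporters included a gene whose probes disagreed. Slc4a4 encodes the electrogenic sodium bicarbonate cotransporter of the basolateral membrane, and its probes, A_55_P2912219 and A_55_P1959228, carry the same accession. On probe A_55_P2912219 the intensity was 102 and 119 in control and 31.0 and 51.4 in Rb-deficient islets, log2 signals of -1.82, -1.79, -3.55 and -3.25. Both Rb-deficient arrays were well below both controls, 3.02-fold in mean. The probe-level limma fit gave -1.60 with a standard error of 0.20, an unadjusted p of 0.00156, where 4.17% of all probes were lower at a p under 0.05, and an adjusted p of 0.471. On probe A_55_P1959228 the log2 signals were -2.54 and -2.80 in control and -2.53 and -2.28 in Rb-deficient islets. Both Rb-deficient arrays were above both controls here, though Rb-deficient array 1 by very little, and the means differed by 0.27 (interval -0.32 to 0.86).

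The log2 ratio of the 2 Slc4a4 probes within an array, which no constant scaling of an array alters, was 0.72 and 1.01 in control and -1.03 and -0.97 in Rb-deficient islets. It differed by -1.86 between the groups, with an SD of 0.20 in control and 0.04 in Rb-deficient islets, and by -0.97 with normexp background correction. The signals of the probes therefore did not change alike. Which transcripts of Slc4a4 each probe detects is not known here, so that no direction can be given for the gene. The gene-level fit used probe A_55_P1959228, which has the higher mean on the log2 scale, and taking the probe with the higher mean linear signal, a choice added after the data were seen, gives -1.60 for the gene in place of 0.27.

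Cftr, the chloride and bicarbonate channel of the apical membrane that is mutated in cystic fibrosis, had weak signal. On probe A_66_P103142 the intensity was 26.2 and 21.7 in control and 17.8 and 16.2 in Rb-deficient islets. The log2 signals were -3.78, -4.24, -4.36 and -4.92, so that both Rb-deficient arrays were below both controls, though Rb-deficient array 1 by only a little. The groups differed by -0.62 with a standard error of 0.31 (adjusted p 0.863 in limma), and it was -0.19 with normexp and 0.13 with quantile normalization. The other Cftr probe, A_52_P452881, stood at 2.32 to 2.68 intensity units and was not well above background on any array. Car2, the cytosolic carbonic anhydrase, also had weak signal, with intensities of 14.3 and 11.9 in control and 6.68 and 19.4 in Rb-deficient islets. Its probe was well above background on control array 1 and Rb-deficient array 2 only, and the groups overlapped, so no difference was detectable at this signal.

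Spp1 encodes osteopontin, a secreted phosphoprotein made by duct cells and, in other settings, by macrophages. Its intensity was 4032 and 2338 in control islets against 860 and 3121 in Rb-deficient islets, log2 signals of 3.48, 2.51, 1.24 and 2.68. Rb-deficient array 1 was the lowest, and Rb-deficient array 2 lay between the controls. The mean was 2.05-fold lower, a difference of -1.04 with a standard error of 0.65 and an adjusted p of 0.863 in limma. It was -0.32 without Rb-deficient array 1 and -1.76 without Rb-deficient array 2. The median of the macrophage markers over their control mean was 0.32 on Rb-deficient array 1 and 1.42 on array 2, and their part in the Spp1 signal was not tested. Of 7 genes for receptors of osteopontin, 6 were higher in mean with a median of 0.20, and 0 passed the test. Leaving out control array 2 gave a median of 0.06, leaving out Rb-deficient array 2 one of 0.07 with 4 of 7 higher, and averaging a gene's probes one of 0.05. Among them Cd44, the hyaluronan receptor, had -0.23 and -0.53 in control and -0.69 and 0.52 in Rb-deficient islets, and Itgav, the integrin alpha V chain, differed by 0.05.

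Krt7, Krt8 and Krt18, whose arrays lay close together, were taken as a reference within each array, chosen after their values were seen. Relative to the mean of Krt7, Krt8 and Krt18, Muc1 differed by -1.31, with -0.89 and -1.73 on the Rb-deficient arrays against 0.09 and -0.09 on the controls. Slc4a4 probe A_55_P2912219 differed by -1.53, Spp1 by -0.97, Cftr probe A_66_P103142 by -0.56 and Slc4a4 probe A_55_P1959228 by 0.33. Krt19 differed by 0.86, with 1.81 on Rb-deficient array 2 and -0.09 on array 1. These ratios stay the same under any constant scaling of an array. Because the keratins were picked for their small spread, the ratios restate the differences above on a scale free of the percentile and add no support to them. Spp1 and Krt19 each stood apart on 1 array.

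**Figure D3:**
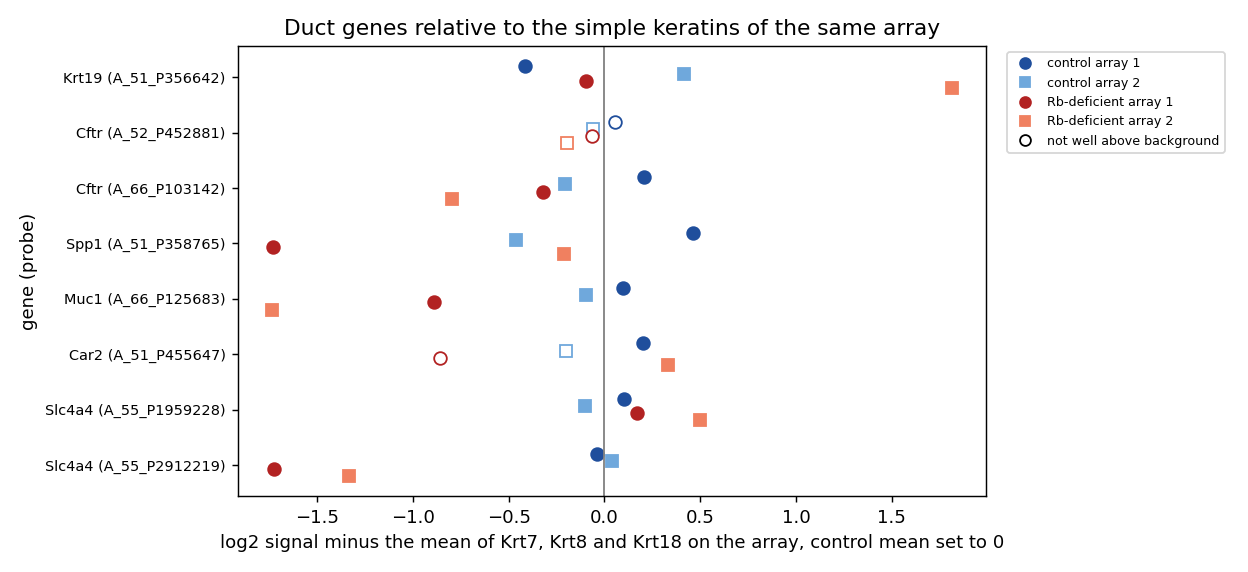
Log2 signal of each other duct probe minus the mean of Krt7, Krt8 and Krt18 on the same array (x axis), with the control mean of each probe set to 0, for the 4 arrays; open symbols are not well above background. Muc1 and Slc4a4 probe A_55_P2912219 lie left of the controls on both Rb-deficient arrays, Spp1 on Rb-deficient array 1 and Krt19 to the right on Rb-deficient array 2.

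Of the other genes of duct fluid secretion, none of those tested on all 4 arrays was called by limma. Slc26a3, a chloride/bicarbonate exchanger, and Aqp5, a water channel, named after their values were seen, were too dim to be tested with all arrays. Without control array 2 they differed by -2.76 and -2.87. They passed the filter there only through control array 1, which favours a lower value in Rb-deficient islets, so these differences carry no weight. Of 17 transport genes 14 were tested, 5 higher and 9 lower in mean, or 3 lower with scaling to the array median, with a median of -0.14. Sctr, the secretin receptor, had -4.64 and -3.06 in control and -5.87 and -4.89 in Rb-deficient islets, with signal well above background on 3 of 4 arrays. It passed the filter only through the controls, which favours a lower value in Rb-deficient islets. Its difference of -1.53 (adjusted p 0.863 in limma) was -0.38 with normexp and -0.36 with quantile normalization. Neither its direction nor its size is settled. Slc26a6, an apical chloride/bicarbonate exchanger, had 0.57 and 0.27 in control and 0.04 and -0.85 in Rb-deficient islets. All 3 of its probes had both Rb-deficient arrays below both controls, as had 21.3% of all probes. Their mean differences were -0.83, -0.58 and -0.45, and none was called. Slc12a2, the basolateral chloride loader, differed by -0.11, Slc4a2, an anion exchanger, by -0.09, and Aqp1, a water channel, by 0.30 with a standard error of 0.73. Ahcyl1, an activator of Slc4a4 and Cftr, was 0.20 higher on the log2 scale.

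Transcription factors of the duct lineage differed in sign. Of 13 regulators, Notch and cilium genes 6 were higher and 7 lower in mean, or 2 lower with scaling to the array median, with a median of -0.15 and 0 called. Sox9, the factor of duct and progenitor identity, had -2.84 and -2.66 in control and -3.47 and -3.97 in Rb-deficient islets. Both Rb-deficient arrays were below both controls on each of its probes, which differed by -0.97 and -0.93 (adjusted p 0.788 for the brighter probe in limma), and by -0.48 for the gene with normexp. Onecut1, a further duct factor, differed by -0.52, again without overlap, and by -0.08 with scaling to the array median. Onecut2 went the other way, with -1.26 and -1.18 in control and -0.71 and -0.44 in Rb-deficient islets, 1.56-fold higher (adjusted p 0.837 in limma). Bicc1, an RNA-binding protein whose loss gives cystic ducts, was 1.46-fold higher, and Hes1, a Notch target, differed by 0.21.

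Epithelial genes resembled the keratins in their median, 0.02, with 7 of 13 tested higher in mean, or 10 with scaling to the array median, and 0 called. Epcam, an adhesion molecule of epithelial cells, had 0.93 and 0.97 in control and 1.25 and 1.42 in Rb-deficient islets, 1.31-fold higher with no overlap. Cdh1, the gene of E-cadherin, differed by 0.15 and the claudin gene Cldn7 by 0.17. The keratins Krt20 and Krt23 were lower in mean. Krt20, a type I keratin, had -3.40 and -2.86 in control and -4.97 and -4.57 in Rb-deficient islets, 3.12-fold lower, and Krt23, another type I keratin, -1.34 and -0.33 against -2.21 and -2.57, 2.94-fold lower. Both had both Rb-deficient arrays below both controls, with adjusted p values of 0.576 and 0.790 in limma. With normexp the differences shrank to -0.54 for Krt20 and -0.95 for Krt23. Lgals3, the gene of galectin-3, which macrophages also make, had -1.57 and -0.81 in control and -1.08 and 0.85 in Rb-deficient islets, high on Rb-deficient array 2 as Krt19 was.

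Secreted proteins found in duct or pancreatic juice divided, with 5 of 10 tested higher in mean, or 6 with scaling to the array median, a median of -0.06 and 0 called. Without control array 2 the median was -0.38, with 4 of 11 higher, and without control array 1 it was 0.02. Tff2, a trefoil peptide, had 6.92 and 6.58 in control and 5.83 and 4.51 in Rb-deficient islets, 2.99-fold lower, and Dmbt1, a scavenger receptor protein, was 2.11-fold lower, both in the array order of the acinar markers. Clu, the gene of clusterin, was 1.52-fold lower. Wfdc2, a protease inhibitor of epithelia, had -3.27 and -3.87 in control and -2.65 and -2.76 in Rb-deficient islets, 1.82-fold higher, a log2 difference of 0.86 that was 0.31 with normexp. Among the mucins Muc4 and Muc20 differed by 0.18 and -0.22 with overlapping groups. Tff3 differed by -0.79 with signal on 3 arrays.

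**Figure D4:**
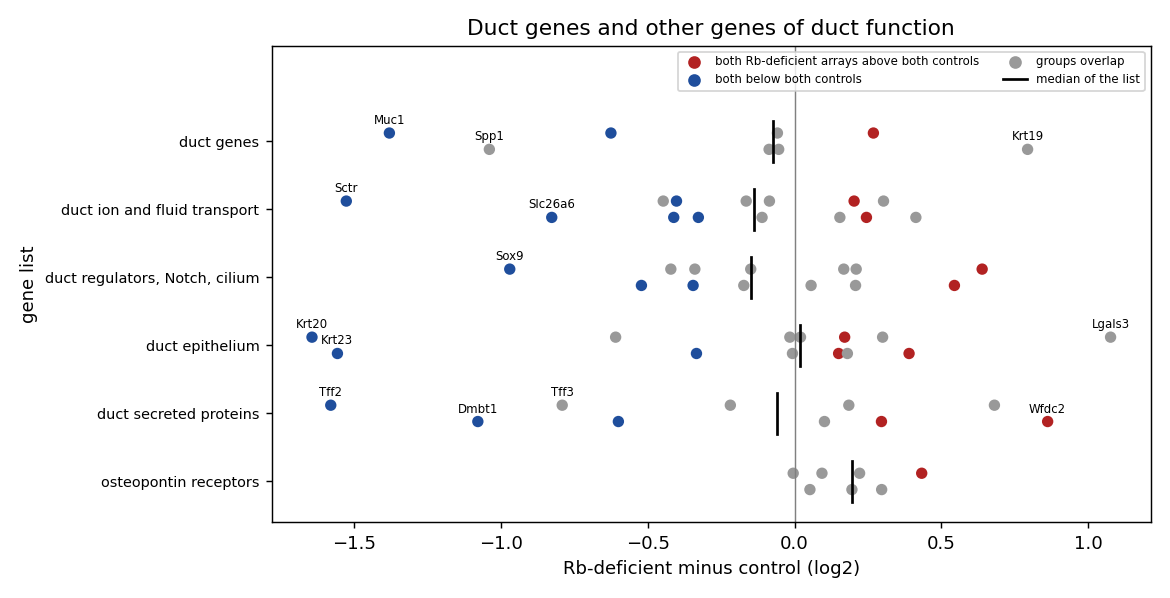
Difference between Rb-deficient and control islets (log2, x axis) for each tested gene of the duct list and of 5 other lists of duct function (y axis), coloured by whether both Rb-deficient arrays lay above both controls, below them or overlapped, with the list median as a bar. Names are given from a size of 0.75 upward, and the medians lie between -0.15 and 0.20.

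The other cell types in the preparation gave the frame for these values. Beta cell markers had 6 of 12 genes higher and a median of 0.05, with Ins2 1.16-fold lower in mean. Markers of alpha, delta and other hormone cells had 3 of 10 higher and a median of -0.49. Gcg, the glucagon gene, was 1.72-fold lower in mean, with 9.34 and 9.44 in control and 9.26 and 7.96 in Rb-deficient islets. The gap was thus mainly on Rb-deficient array 2. Sst, the somatostatin gene, was 1.17-fold lower and Ppy differed by 0.03, both with overlapping groups. Fibroblast and stellate markers had 4 of 10 higher and a median of -0.06, with shifts of -0.67 and 0.57 on the Rb-deficient arrays. Endothelial markers had 9 of 9 higher and a median of 0.18, or 5 of 9 and 0.03 without Rb-deficient array 2. Erythroid genes had 4 of 4 higher and a median of 0.26, but 0 of 5 and -0.55 without control array 2 and 0 of 4 and -0.14 without Rb-deficient array 2. No gene of these lists was called with all arrays and the 75th percentile. With scaling to the array median 480 of 26379 genes were called. Among them were Fcgr1 and Lyz2 of the macrophage list and Ghrl of the hormone cell list, all 3 named after their values were seen. That scaling, which moved the median of all genes from -0.07 to 0.37, put the medians of the duct and fibroblast lists at 0.37 and 0.38 and all 12 beta cell markers above 0.

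**Figure D5:**
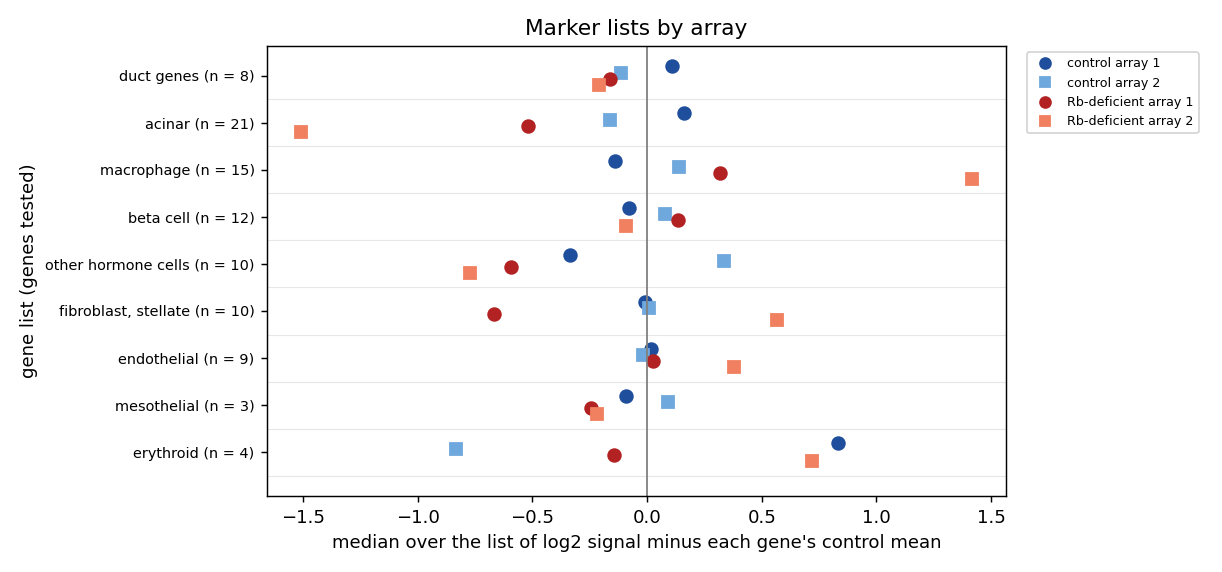
Median over each marker list of the log2 signal minus the control mean of each gene (x axis) for the 4 arrays, with the number of genes tested beside each list (y axis). The duct list stays between -0.21 and 0.11 on all arrays, while on Rb-deficient array 2 the acinar list lies at -1.51 and the macrophage list at 1.42.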

How the data were processed

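RNA of islets from 4 mice was measured on 1 slide of Agilent arrays. The deposited intensity values came from Feature Extraction 12.0.3.1 per the file headers, background-subtracted and not scaled between arrays, on a design annotated on mm9. Flags in the same files, 0 or 1, mark spots well above background, saturated or outlying. No spot was saturated. RNA was amplified and labelled with Cy3 per the labels' protocols. Some genes are not reported here. A deposited value table held the processed intensity times a constant per array and served as an alternative.

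Control and outlier spots were left out, and log2 signal minus each array's 75th percentile was used. Accessions were named through a RefSeq table of GRCm38.p6 (32994 of 56605 probes, 58.3%). Probes with no match were kept under the accession or region of the file, so that the counts of all genes include such unnamed transcripts. A probe was kept if both arrays of a group had it well above background (33846 probes), and per gene the one with the highest mean log2 signal. Limma 3.58.1 in R 4.3.3 (lmFit, eBayes, two-sided, Benjamini-Hochberg, threshold 0.05) compared the groups across all genes, and across all probes for values given per probe, with 2 residual degrees of freedom and a prior worth 1.82. The number of arrays limits the precision. The fit was tested on simulated data.

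The duct genes and the marker lists were chosen with earlier results of these data known. The text names every duct gene, members of the other duct lists by their role, up to 3 of the brightest markers of each other cell type, Rb1, sex-linked Xist and, chosen after their values were seen, the mesothelial markers at background. Alternatives were normexp on the median signals (the files used here hold no mean signals) with an offset of 50, quantile normalization, median scaling, other filters and probe rules, each array left out and a replicate block. Slide could not be a block, as there was 1.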

Additional observations from a re-analysis of the deposited data

How the results depend on the processing

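None of the 9 duct genes was called under the 13 alternatives, among the genes each tested. The count of all genes called was 480 with scaling to the array median (572 probes) and ran from 0 to 4091 (0 to 4901 probes) when arrays were left out, where the highest was without control array 2. The fit without control array 2 tested 34649 genes against a lone control array, so its count carries no weight. The median difference of the duct genes was 0.37 with median scaling and -0.36 both with the mean of a gene's probes and with the brightest probe by linear signal. It ran from -0.27 to -0.087 with arrays left out. The number lower was 3 with median scaling and 4 to 6 with arrays left out. Median scaling adds a constant to every difference, and with it Krt7, Krt8 and Krt18 turned to 0.35, 0.38 and 0.38. With an array left out they ran from -0.21 to 0.041, -0.20 to 0.087 and -0.20 to 0.093, and Krt19 from -0.12 to 1.70. Cftr turned to 0.13 with quantile normalization, and the cause was not tested. Slc4a4 turned to -0.89 with normexp, -1.32 with quantile normalization, -0.66 with the mean of its probes and -1.60 by linear signal, and ran from -1.75 to 0.40 with arrays left out, because its other probe was taken or averaged in. Muc1 and Spp1 kept their sign throughout. Same-numbered arrays' deviations correlated at 0.30 across genes, the design text names individual mice and no pairing, and with the replicate block 0 genes were called and it changed no other call. In this balanced design the block leaves each difference, and so the median of -0.07, as it was by construction. Car2 was tested under 3 alternatives only, with -0.33 without a filter on dim probes, -0.55 if control array 2 was left out and 0.23 if Rb-deficient array 1 was. With an array left out, Car2 passed the filter only through the lone array of a group, control array 1 or Rb-deficient array 2. Its signal was highest on these arrays, so the filter favoured the sign of each difference. Signal close to background limits Cftr and Car2.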
